A study of Mus musculus with 48 samples.

Results

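The Rab GTPases are the largest family of small GTPases and direct membrane traffic. All rows of the deposited table whose symbol is Rab followed by a number, with or without 1 further letter and digit, were taken, which gave 59 Rab targets among 19962 measured targets. The study used GeoMx digital spatial profiling, in which probes hybridised to RNA on a tissue section carry tags that are released by light from chosen regions and sequenced, on frozen sections of mouse brain perfused and fixed with 4% PFA. The titles list 24 regions of interest, each with a segment stained for TMEM119, found on the microglial surface, and one stained for GFAP, an astrocyte filament protein. Columns of the table number 16 (6 of WT, 5 of 5xFAD and 5 of 5xFAD-LynKO by their headings), and these were taken as TMEM119 segments because the series describes a microglial analysis of those genotypes.

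WT columns come from wild-type mice, 5xFAD columns from a transgenic line that deposits amyloid in the brain, and 5xFAD-LynKO columns from 5xFAD animals crossed with a knockout of Lyn, a member of the Src kinase family found in myeloid cells. All 3 groups share the fixation, and the 5xFAD and 5xFAD-LynKO groups share the amyloid transgenes. The labels give no age, sex, number of animals or transgene promoter. A group named APP was not analysed here. No heading names a marker or a region, and regions of a genotype may come from 1 animal or 1 section, so every p-value below may be too small. The comparisons ask how expression in microglia-targeted segments changes with amyloid and how it changes when Lyn is removed on top of amyloid.

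A Rab protein cycles between a GDP-bound form held in the cytosol and a GTP-bound form on a membrane, where it recruits tethers, motors and fusion machinery. Each compartment carries its own members, so that Rab5 marks early endosomes, Rab7 late endosomes, Rab11 recycling endosomes and Rab1 and Rab6 the Golgi, while Rab3 sits on synaptic vesicles and secretory granules. In brain the synaptic members are known from neurons, and the endosomal and lysosomal members serve uptake and degradation in microglia as in most other cells. In regions that hold several cell types, fewer cells of a type and less RNA per cell cannot be told apart.

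Every level below is a deposited value divided by the median of its column, so 1 is the signal of the median probe. The negative control probe, which has no target in mouse RNA, stood at 0.859 to 0.918 of the median in WT columns, 0.933 to 0.957 in 5xFAD columns and 0.911 to 0.968 in 5xFAD-LynKO columns. A level of 1 is therefore near background. Above background means over 1.5 times the negative probe of the column, in 5 or more columns, which 32 of the 59 Rab targets and 3363 of 19960 tested targets did. On average 17.6% of tested targets exceeded that ratio in a WT column and 9.38% in a 5xFAD column. Of the 32 Rab targets, 25 exceeded it in 5 or more WT columns. The filter therefore favours targets high in WT. Probes differ in efficiency, so levels of different genes are signals of their probes and not amounts of RNA.

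Several facts of the whole table bear on these levels. Total implied probe counts, obtained by dividing a column by its smallest step, were 1194249 to 2548601 in WT, 3205406 to 4148785 in 5xFAD and 3207095 to 5793534 in 5xFAD-LynKO columns, and the Rab targets held 0.357% to 0.424% of them. Rab targets above 1.5 times the negative probe numbered 25 to 36 in WT, 20 to 26 in 5xFAD and 13 to 33 in 5xFAD-LynKO columns. A list of 10 microglial markers had a mean level of 1.5 to 3.66 in WT, with WT columns 1 (3.66) and 3 (3.14) apart from the rest, 1.17 to 1.43 in 5xFAD and 1.13 to 1.24 in 5xFAD-LynKO. The probe for Tmem119 itself, at levels of 0.544 to 0.973, was over the negative probe in 3 of 16 columns and over 1.5 times it in 0, while that for Aif1, another microglial marker, was over 1.5 times it in 16 of 16. The Gfap probe, at 1.01 to 6.18, was over 1.5 times the negative probe in 7 of 16 columns. A list of 10 pan-neuronal markers had a mean level of 2.52 to 5.86, 2.16 to 4.07 and 1.71 to 4.82. Snap25, a neuronal SNARE protein, ranged from 2.97 to 21.9. The Lyn probe was at 1.17 ± 0.14 (SD, n = 6), 1.09 ± 0.057 (n = 5) and 1.13 ± 0.085 (n = 5) in the order WT, 5xFAD and 5xFAD-LynKO, near background in all 3 groups, so the knockout could not be read from it.

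Against WT, 5xFAD columns had lower Rab3b, Rab5c and Rab35 and higher Rab7b and Rab32, by 0.25 to 0.32 on the log2 scale without background subtraction, and no Rab target differed between 5xFAD-LynKO and 5xFAD at the threshold. The 5 called targets are 8.47% of the 59, against 14.2% of all 19960 targets called in that comparison by limma at an adjusted p under 0.05. The 3 lower ones are 5.08% of the members, against 8.23% of all targets, and the 2 higher ones are 3.39%, against 5.99%. Rab35, Rab7b and Rab32 exceeded 1.5 times the negative probe in 0 of the 16 columns. With the negative probe subtracted, the difference was −1.23 for Rab5c (adjusted p = 0.0117) and −0.96 for Rab3b (adjusted p = 0.0249), both still called, and −2.84 for Rab35 (adjusted p = 0.10), 1.75 for Rab7b (adjusted p = 0.251) and −0.20 for Rab32 (adjusted p = 0.939), none of them called. Subtracted values under 1 were set to 1, and every 5xFAD column of Rab35 was below its negative probe. Some columns of Rab7b and Rab32 were too, so the differences of Rab35, Rab7b and Rab32 depend on that floor and are not sizes of change. Scaling each column to its upper quartile gave 4 higher and 2 lower Rab calls, scaling to the negative probe 0 and 6, and quantile normalization 4 and 1, while all targets were called higher in 42.1%, 60%, 14.4% and 39.3% of their calls in the order of the reported, upper quartile, negative probe and quantile settings. Calls over all 19960 targets numbered 2839, 2995, 3442 and 2622 in the same order. Without any rescaling the median of all targets moved to 0.88 and 58 Rab targets were called higher, since the deposited medians differ between genotypes.

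Synaptic members come first. Rab3a, the main Rab of synaptic vesicles, gave the highest signal of the Rab probes in 14 of the 16 columns. Its level was 3.55 at the lowest, 4.21 at the median and 7.44 at the highest in the 6 WT columns. It was 2.57, 4.03, 3.22, 4.43 and 3.09 in 5xFAD columns 1 to 5, and 1.88, 5.74, 4.68, 2.28 and 4.68 in 5xFAD-LynKO columns 1 to 5. The 3 groups overlapped, and the 5xFAD-LynKO columns split into a pair near 2 and the others above 4. The log2 difference of 5xFAD from WT was −0.40, with a 95% interval of −0.97 to 0.17 and an adjusted p of 0.340. That of 5xFAD-LynKO from 5xFAD was 0.05, with an interval of −0.54 to 0.64.

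Rab3b, a close relative with a role in regulated exocytosis, varied less between columns. Its level in WT was 1.36, 1.79 and 1.92 at the lowest, median and highest column. In 5xFAD it was 1.27, 1.44, 1.35, 1.39 and 1.33, and in 5xFAD-LynKO 1.31, 1.44, 1.64, 1.55 and 1.60. All but the lowest WT column, which was column 5, lay above every 5xFAD column. Rab3b fell by 0.32 on the log2 scale in 5xFAD (SE 0.093, limma adjusted p = 0.0225), and 3 leave-outs of a single 5xFAD column moved the adjusted p past the threshold (0.0571 without column 1, 0.0533 without column 3 and 0.0587 without column 5). Its difference between 5xFAD-LynKO and 5xFAD was 0.15 (adjusted p = 0.604).

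The other Rab3 members were close to background. Rab3c had 1.24 ± 0.16 (SD, n = 6) in WT, 1.17 ± 0.14 (n = 5) in 5xFAD and 1.28 ± 0.27 (n = 5) in 5xFAD-LynKO. Rab3d, best known from secretory granules of exocrine cells, had 1.15 ± 0.13, 1.20 ± 0.10 and 1.14 ± 0.078. Neither differed from WT in 5xFAD at the threshold (adjusted p = 0.685 and 0.661). The mean level of the 4 Rab3 targets was 1.84 to 2.92 over WT, 1.5 to 2.07 over 5xFAD and 1.35 to 2.46 over 5xFAD-LynKO columns.

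**Figure D1:**
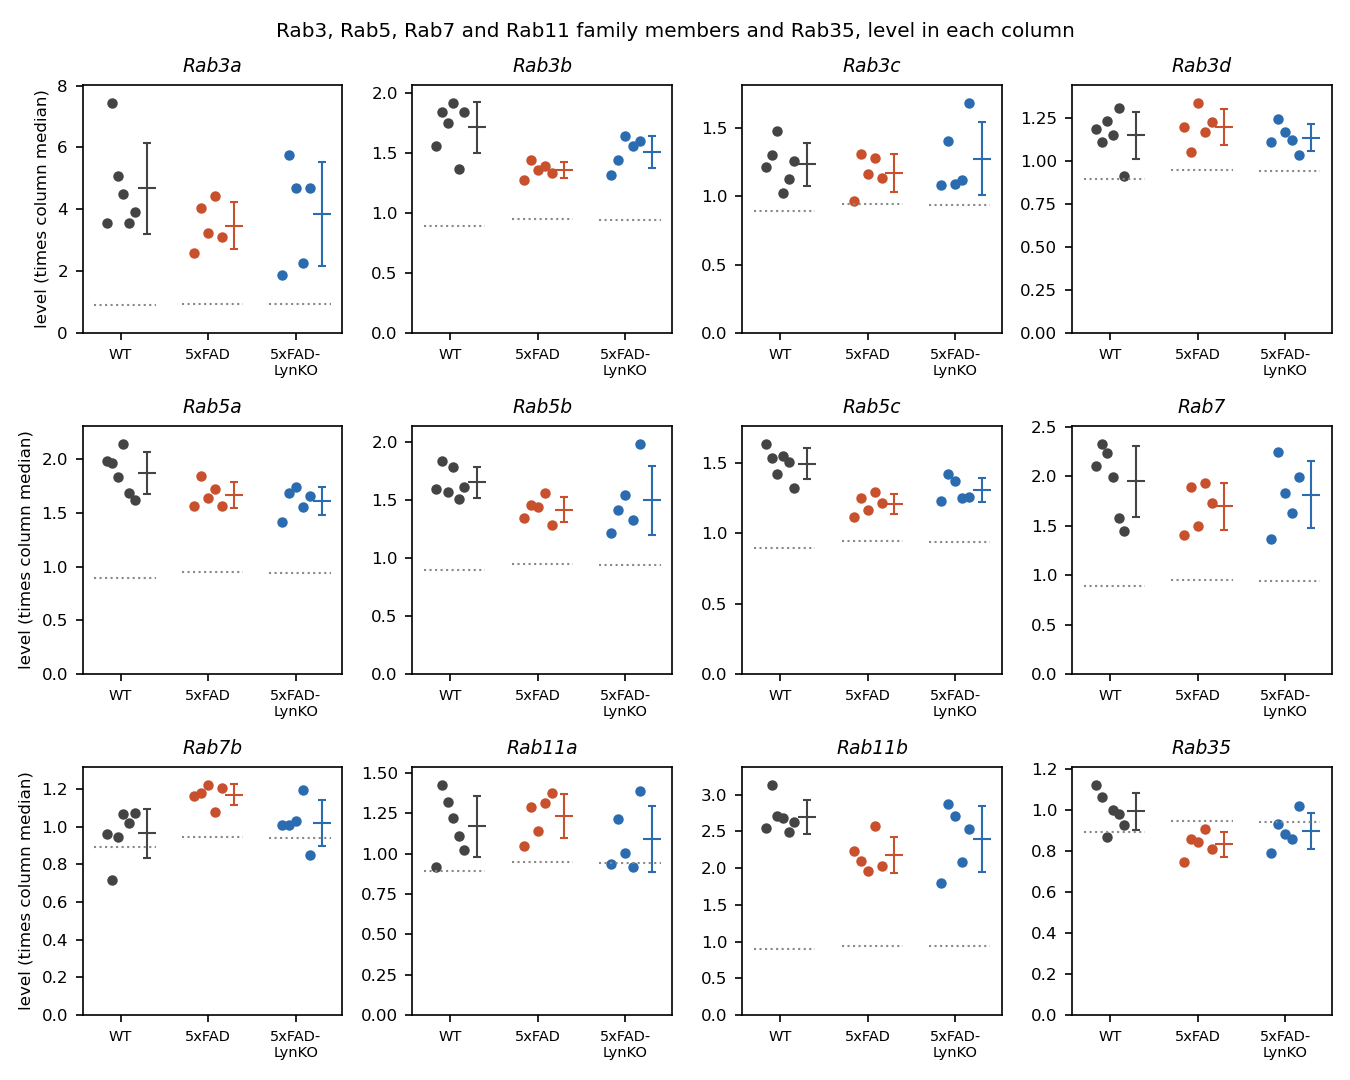
Level of 12 Rab targets in each of the 16 columns, as multiples of the column median, for WT (6 columns), 5xFAD (5) and 5xFAD-LynKO (5). Points are columns in the order of their numbers, the bar beside them is the mean ± SD, the dotted line is the mean level of the negative probe in that genotype, and each axis starts at 0. Rab5c points of WT all lie above those of 5xFAD, Rab3a spans 1.88 to 7.44, and Rab35 and Rab7b lie beside the dotted line.

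Of the Rabs of other regulated secretion, none was called. Rab26, linked to secretory granules and to synaptic vesicle clusters, had 1.56 ± 0.26 in WT, 1.63 ± 0.14 in 5xFAD and 1.54 ± 0.15 in 5xFAD-LynKO. Rab27a, which docks lysosome-related organelles and exosome-bearing endosomes at the plasma membrane, had 1.32 ± 0.050, 1.40 ± 0.11 and 1.32 ± 0.086. Rab27b and Rab37 were not above background. All 4 differences of 5xFAD from WT were above 0, between 0.08 and 0.16, and each interval included 0.

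Among the early endosomal members, Rab5c was lower in 5xFAD than in WT. Rab5c, 1 of the 3 Rab5 isoforms that drive early endosome fusion, had levels of 1.32, 1.52 and 1.64 at the lowest, median and highest WT column. In 5xFAD it had 1.12, 1.25, 1.16, 1.30 and 1.22, and in 5xFAD-LynKO 1.23, 1.42, 1.37, 1.25 and 1.26. It was over 1.5 times the negative probe in 5 WT columns, 0 5xFAD columns and 1 5xFAD-LynKO column, so it counts as above background through the group where it was high. Every WT column lay above every 5xFAD column, a separation seen in 2 Rab targets (3.39% of the 59), against 5.1% of all targets. Rab5c fell by 0.30 on the log2 scale in 5xFAD (SE 0.079, limma adjusted p = 0.0131), and it held when each column was left out in turn (highest adjusted p = 0.0411). Leaving out a 5xFAD-LynKO column does not alter this difference and changes only the shared estimate of spread.

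Rab5a and Rab5b lay on the same side without passing the threshold. Rab5a had 1.87 ± 0.20 in WT and 1.67 ± 0.12 in 5xFAD, a log2 difference of −0.16 (adjusted p = 0.259). Rab5b had 1.65 ± 0.13 and 1.42 ± 0.11, a difference of −0.22 (adjusted p = 0.155). In 5xFAD-LynKO they had 1.61 ± 0.13 and 1.5 ± 0.30, and column 5 held the highest Rab5b level, 1.99. Averaged over the 3 isoforms, the level was 1.52 to 1.83 in WT columns, 1.34 to 1.53 in 5xFAD and 1.29 to 1.63 in 5xFAD-LynKO.

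The remaining early endosomal members were mixed. Rab31, which shares sequence with Rab22a and acts between the Golgi and endosomes, had 1.55 ± 0.15 in WT, 1.33 ± 0.13 in 5xFAD and 1.27 ± 0.13 in 5xFAD-LynKO, with differences from WT of −0.22 (adjusted p = 0.112) and −0.28 (adjusted p = 0.491). Rab21, which carries integrins inward, had 1.72 ± 0.15, 1.58 ± 0.19 and 1.63 ± 0.23. Rab20, known from phagosomes of macrophages, was at 1.28 ± 0.12 in WT and 1.44 ± 0.082 in 5xFAD, a difference of 0.17 (adjusted p = 0.173). Rab22a was not above background. Of the 7 early endosomal targets 6 had a difference below 0, with a median of −0.17, and 1 was called. Of all 19960 tested targets, 9711 had a difference below 0, with a median of 0.01. Of the 6 early endosomal targets above background, 5 had a difference below 0, with a median of −0.19. Of all 3363 tested targets above background, 2825 had a difference below 0, with a median of −0.16.

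Sequence upstream of the start is shown for Rab3b and Rab5c, called lower in 5xFAD. Rab3b was over 1.5 times the negative probe in 6 WT, 1 5xFAD and 4 5xFAD-LynKO columns. Both are the 250 bases before the annotated start, from RefSeq on GRCm38.p6, written 5′ to 3′ on the gene's strand, with every match to the GC box GGGCGG, a site known to bind Sp1-type factors, or to its reverse complement CCGCCC, in capitals. Rab3b lies on the plus strand at chr4:108878820-108879069 and Rab5c on the minus strand at chr11:100738216-100738465.
Rab3b: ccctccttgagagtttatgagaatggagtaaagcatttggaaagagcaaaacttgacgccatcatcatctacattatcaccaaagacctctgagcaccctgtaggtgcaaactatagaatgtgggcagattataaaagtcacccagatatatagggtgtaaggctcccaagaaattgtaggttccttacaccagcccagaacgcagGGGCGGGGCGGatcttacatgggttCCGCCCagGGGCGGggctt
Rab5c: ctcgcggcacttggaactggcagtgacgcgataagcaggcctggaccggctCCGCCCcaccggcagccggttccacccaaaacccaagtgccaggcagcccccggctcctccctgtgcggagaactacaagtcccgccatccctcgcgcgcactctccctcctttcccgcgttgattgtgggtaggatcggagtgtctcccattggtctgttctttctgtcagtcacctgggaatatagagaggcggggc

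Rab3b holds 4 GC box matches, of which the first pair overlaps, and 1 match to the TATA box letters TATAAA on either strand, whereas Rab5c holds 1 GC box and no TATAAA. GC content was 48.8% for Rab3b and 63.2% for Rab5c. All 59 symbols matched RefSeq, and 48 of the genes had an upstream sequence, with 60 sequences in all since some genes have several starts. A GC box lay in 40 of those 60 (66.7%), against 32.7% of 32851 mouse upstream sequences of the same length, and TATAAA lay in 6.67%, against 12.4%. These matches describe letters in the window and do not mark bound sites.

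Late endosomal and lysosomal members were mostly near background. Rab7, which drives fusion of late endosomes with lysosomes, had levels of 1.44, 2.05 and 2.33 at the lowest, median and highest WT column. It had 1.41, 1.90, 1.5, 1.94 and 1.73 in 5xFAD and 1.37, 2.25, 1.83, 1.63 and 1.99 in 5xFAD-LynKO. The groups overlapped throughout, and the difference of 5xFAD from WT was −0.19, with an interval of −0.46 to 0.09 (adjusted p = 0.361). Rab9b, a relative of the Rab that returns mannose 6-phosphate receptors to the Golgi, had 1.27 ± 0.15, 1.32 ± 0.16 and 1.32 ± 0.21 and was the other member of this group above background.

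The 2 called targets of this group rose in 5xFAD at signals near the negative probe. Rab7b, which retrieves cargo from endosomes to the Golgi, had 0.720, 0.989 and 1.07 at the lowest, median and highest WT column and 1.16, 1.18, 1.22, 1.08 and 1.20 in 5xFAD. Its log2 difference was 0.29 (limma adjusted p = 0.0399), and the 2 groups did not overlap. In 5xFAD-LynKO it had 1.01, 1.01, 1.03, 1.19 and 0.849, a difference of −0.21 from 5xFAD (adjusted p = 0.424) that was the only 1 of the 59 with an unadjusted p under 0.05 in that comparison. Rab32, a Rab of lysosome-related organelles, had a median of 0.676 in WT and 0.875 in 5xFAD, both below the negative probe, and a difference of 0.30 (adjusted p = 0.0466). With each column scaled to its negative probe in place of its median, neither was called.

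Rab29, Rab34, Rab38 and Rab9 were at 0.769 to 1.10 on average in each genotype, without a call. Rab29 is known as a partner of the kinase LRRK2, and Rab38 works with Rab32 on melanosomes. Over the 8 late endosomal and lysosomal targets, 6 differences of 5xFAD from WT were above 0 and the median was 0.07.

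Recycling members held several strong probes. Rab11b, of the slow recycling endosome, had 2.49, 2.66 and 3.13 at the lowest, median and highest WT column, 2.24, 2.09, 1.96, 2.57 and 2.03 in 5xFAD and 1.79, 2.88, 2.72, 2.08 and 2.53 in 5xFAD-LynKO. All but 1 of the 5xFAD columns lay below every WT column, and the difference was −0.31, with an interval of −0.58 to −0.03 and an adjusted p of 0.119. Rab11a, its close paralogue, was near background at 1.17 ± 0.19, 1.23 ± 0.13 and 1.09 ± 0.20, with a difference of 0.08 (adjusted p = 0.645).

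Rab14, which moves cargo between the Golgi and endosomes, had 3.01 ± 0.43 in WT, 2.48 ± 0.29 in 5xFAD and 2.69 ± 0.52 in 5xFAD-LynKO. Rab15, a neuronal endosomal Rab, had 2.32 ± 0.33, 1.93 ± 0.29 and 2.05 ± 0.30. Their differences of 5xFAD from WT were −0.27 (adjusted p = 0.233) and −0.26 (adjusted p = 0.163). Neither they nor Rab11b passed the threshold.

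Rab35, a Rab of fast recycling to the plasma membrane, was called at a signal near the negative probe. Its level was 0.866, 0.991 and 1.12 at the lowest, median and highest WT column and 0.747, 0.856, 0.843, 0.909 and 0.807 in 5xFAD. It fell by 0.25 on the log2 scale (limma adjusted p = 0.0423), with overlapping groups. In 5xFAD-LynKO it had 0.897 ± 0.086. Rab4a and Rab4b, of fast recycling, and Rab17 and Rab25, known from epithelia, were not above background, and Rab17 came nearest to a call, with a difference of 0.20 (adjusted p = 0.0753).

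Of the 16 Rabs of ER to Golgi transport and constitutive secretion, 10 were above background and none was called. Rab6b, the neuronal isoform of the Golgi Rab6, was the most variable of them, with 1.97, 2.32 and 3.48 at the lowest, median and highest WT column, 1.89, 2.25, 1.5, 2.80 and 1.36 in 5xFAD and 1.21, 2.73, 2.61, 1.59 and 1.72 in 5xFAD-LynKO. Its difference of 5xFAD from WT was −0.37, with an interval of −0.77 to 0.02 (adjusted p = 0.193). Rab1a, of ER to Golgi transport, had 1.64 ± 0.31, 1.33 ± 0.14 and 1.36 ± 0.26, with differences from WT of −0.29 (adjusted p = 0.110) and −0.27 (adjusted p = 0.551).

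The other secretory members were steadier. Rab10 and Rab13, which act in polarised exocytosis, had differences of −0.10 and −0.02. Rab1b, Rab2a and Rab2b, of the ER to Golgi step, had −0.05, −0.15 and 0.05. Rab18, of the ER and lipid droplets, had −0.01, and Rab33a and Rab33b, of the Golgi, had −0.15 and 0.08. Their adjusted p-values ran from 0.385 to 0.958. The members of this group not above background were Rab6a, Rab8a, Rab8b, Rab19, Rab30 and Rab43, of which Rab8b, a Rab of exocytosis, had the smallest adjusted p (−0.21, adjusted p = 0.0629), and Rab8a gave the lowest mean level of all 59 probes.

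Among the 11 other members, 7 were above background and none was called. Rab12, a phosphorylation target of LRRK2, had 2.46 ± 0.33 in WT, 2.18 ± 0.25 in 5xFAD and 2.30 ± 0.35 in 5xFAD-LynKO. Rab24, linked to autophagy, had 2.01 ± 0.11, 1.80 ± 0.23 and 1.88 ± 0.19. Rab39b, a neuronal Rab, had 1.69 ± 0.14, 1.65 ± 0.044 and 1.59 ± 0.13. The differences of 5xFAD from WT were −0.17 for Rab12, −0.16 for Rab24, −0.10 for Rab23, a regulator of hedgehog signalling, −0.07 for Rab28, 0.15 for Rab36, −0.03 for Rab39b and 0.14 for Rab42.

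**Figure D2:**
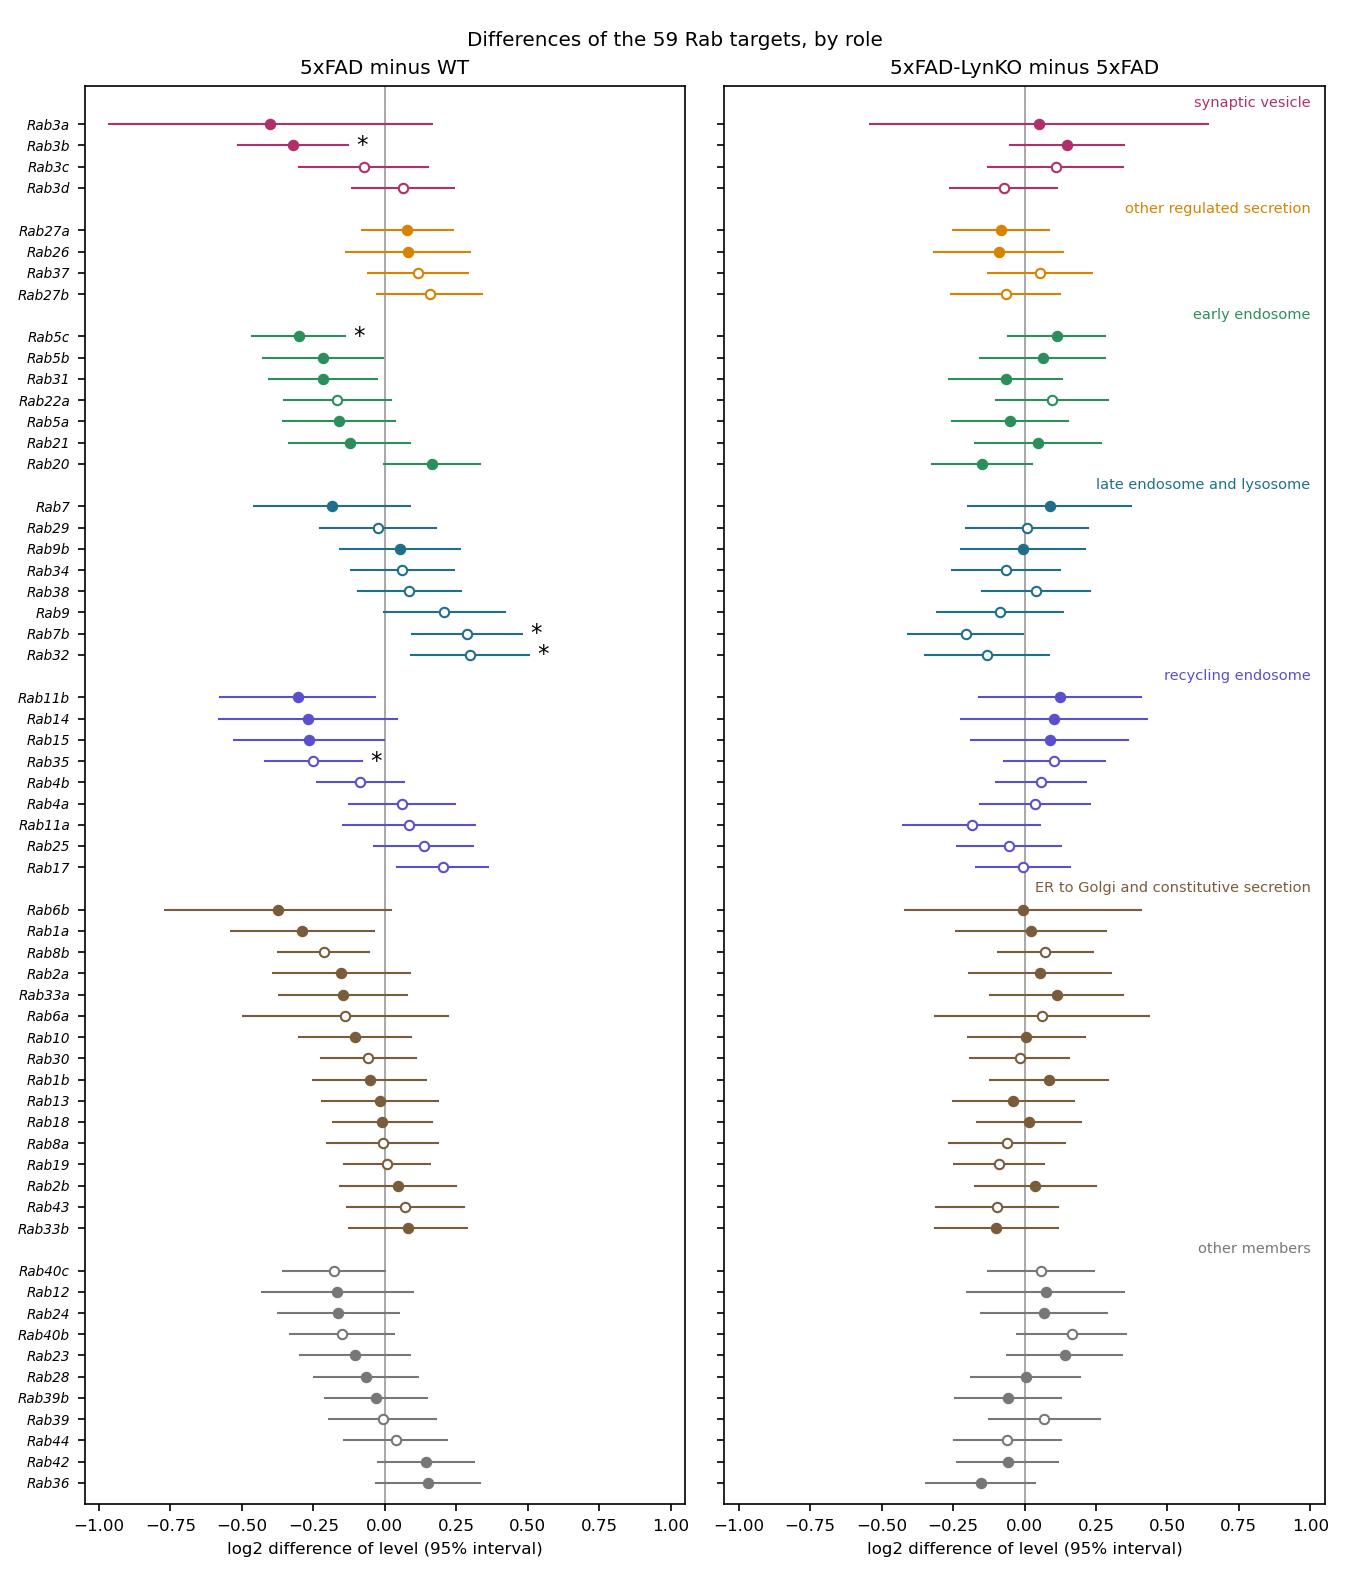
Log2 difference of level for each of the 59 Rab targets, 5xFAD minus WT on the left and 5xFAD-LynKO minus 5xFAD on the right, with 95% intervals and grouped by role. Filled circles are targets above background, open circles are not, and asterisks mark the 5 calls. No asterisk stands in the right panel, and the widest interval is that of Rab3a.

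The role groups are set side by side by their medians, with no test between them. The median difference of 5xFAD from WT was −0.20 over the 4 synaptic targets, 0.10 over the 4 of other regulated secretion, −0.17 over early endosome, 0.07 over late endosome and lysosome, −0.09 over recycling endosome, −0.06 over the 16 secretory targets and −0.07 over the other members. It was −0.05 over all 59 Rab targets and 0.01 over all tested targets. Among targets above background it was −0.13 over the 32 Rab targets and −0.16 over all 3363. The background filter favours targets high in WT, so values below 0 in filtered sets are partly selected by it. The share of targets above background differed between groups, with 6 of 7 in early endosome and 2 of 8 in late endosome and lysosome. Over all 59, the Rab median was 0.00 with upper quartile scaling, −0.13 with negative probe scaling and 0.03 with quantile normalization. The 7 endosomal Rab5, Rab7 and Rab11 targets had a median of −0.19 and the 4 Rab3 targets −0.20, and no test of that contrast was made.

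**Figure D3:**
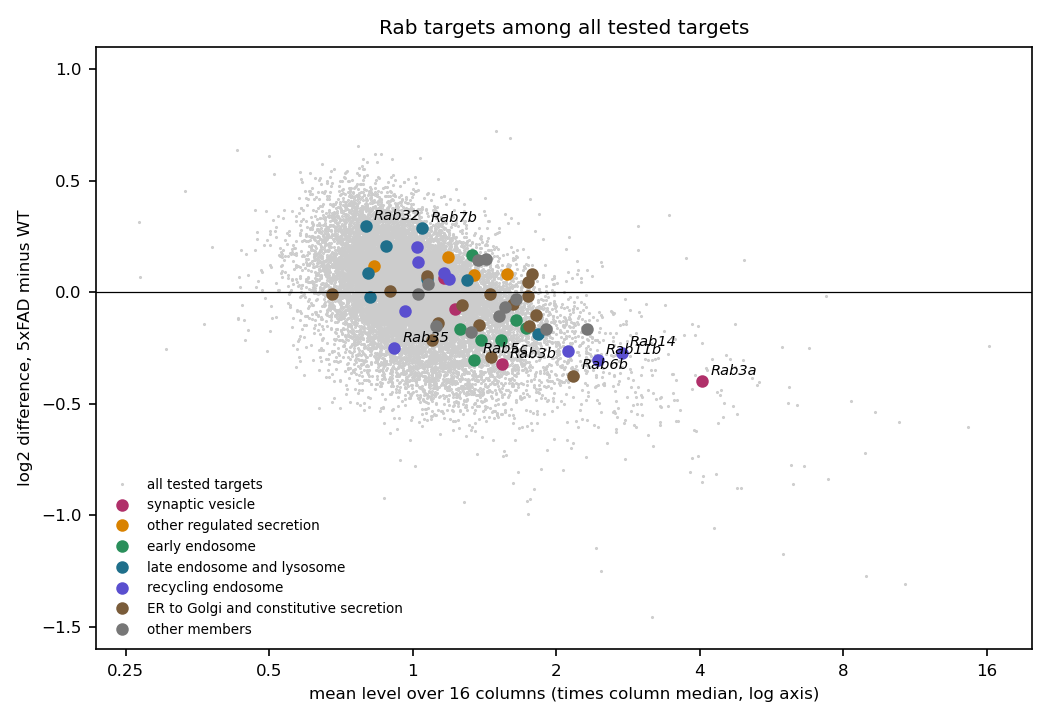
Log2 difference, 5xFAD minus WT, against mean level over the 16 columns as multiples of the column median (log axis), for all tested targets in grey and the Rab targets coloured by role. Rab3a (−0.40), Rab6b (−0.37), Rab11b (−0.31) and Rab14 (−0.27) lie below 0 at the right, and none of them was called.

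Removal of Lyn from 5xFAD was followed by no called Rab target, and 0 of 19960 tested targets (0%) were called by limma in that comparison, while 2255 targets and 1 Rab had an unadjusted p under 0.05. Columns of the 2 groups did not overlap for 0 Rab targets, against 2.69% of all targets. The median difference over the Rabs was 0.01. For 58 of the 59, the 95% interval lay within 0.5 on the log2 scale on either side of 0, Rab3a being the exception. Of the 32 above background this held for 31. For the rest, unsubtracted background narrows the interval, so it does not show that their RNA was unchanged. Intervals also take each region as independent. Rab3b (0.15) and Rab5c (0.11), lower in 5xFAD, had differences above 0 here, and Rab7b (−0.21) and Rab32 (−0.13), higher in 5xFAD, had differences below 0. This comparison and that of 5xFAD with WT share the 5xFAD columns, so opposite signs are favoured by construction.

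Against WT, 5xFAD-LynKO columns had 0 called Rab targets, and 12 of all 19960 targets were called (0.0601%). The smallest adjusted p of a Rab was 0.491, for Rab31. An unadjusted p under 0.05 was reached by 5 Rabs (Rab17, Rab1a, Rab31, Rab5a and Rab5c), and by 1761 of all targets. Rab5c was at 1.31 ± 0.084 in 5xFAD-LynKO, between 1.5 ± 0.11 in WT and 1.21 ± 0.070 in 5xFAD. Intervals lay within 0.5 on either side of 0 for 56 of the 59, the others being Rab1a, Rab3a and Rab6b, and for 29 of the 32 above background.

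Within a genotype, Rab3a varied most from column to column. The SD of the log2 level within genotypes was 0.50 for Rab3a, 0.41 for Rab6b, 0.40 for Rab6a, 0.26 for Rab7 and 0.24 for Rab1a. The median over the 32 above-background Rabs was 0.15, against 0.18 over all above-background targets. Of the 59 Rabs, 16 had their highest WT level in WT column 2, 27 their highest 5xFAD level in 5xFAD column 4 and 20 their highest 5xFAD-LynKO level in column 2 (18 in column 5), and 26 had their lowest 5xFAD-LynKO level in column 1. The mean level over all 3363 above-background targets was also highest in WT column 2 (2.02), 5xFAD column 4 (1.76) and 5xFAD-LynKO column 2 (1.86), with 1.81 in column 5, and lowest in 5xFAD-LynKO column 1 (1.38).

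Those columns were also the highest, and the last among the lowest, in Snap25. It stood at 21.9 in WT column 2, 13.5 in 5xFAD column 4 and 15.9 in 5xFAD-LynKO column 2, and at 3.68 in 5xFAD-LynKO column 1. Neuronal markers did not all follow Snap25, since in 5xFAD-LynKO column 5 it was at 4.35 while Map2 (3.06) and Uchl1 (2.56) were at the highest level of that genotype. Rab6b at 3.48 in WT column 2 and 1.21 in 5xFAD-LynKO column 1 spanned the same columns. A fit was also made with the mean log2 level of the pan-neuronal markers as a covariate, and in it Rab3b (−0.28) and Rab5c (−0.27) remained called. Rab7b (0.23), Rab32 (0.26) and Rab35 (−0.22) did not, at adjusted p of 0.0837 to 0.0897, against reported differences of 0.29, 0.30 and −0.25. Calls over all targets went from 2839 to 2205 in that fit.

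**Figure D4:**
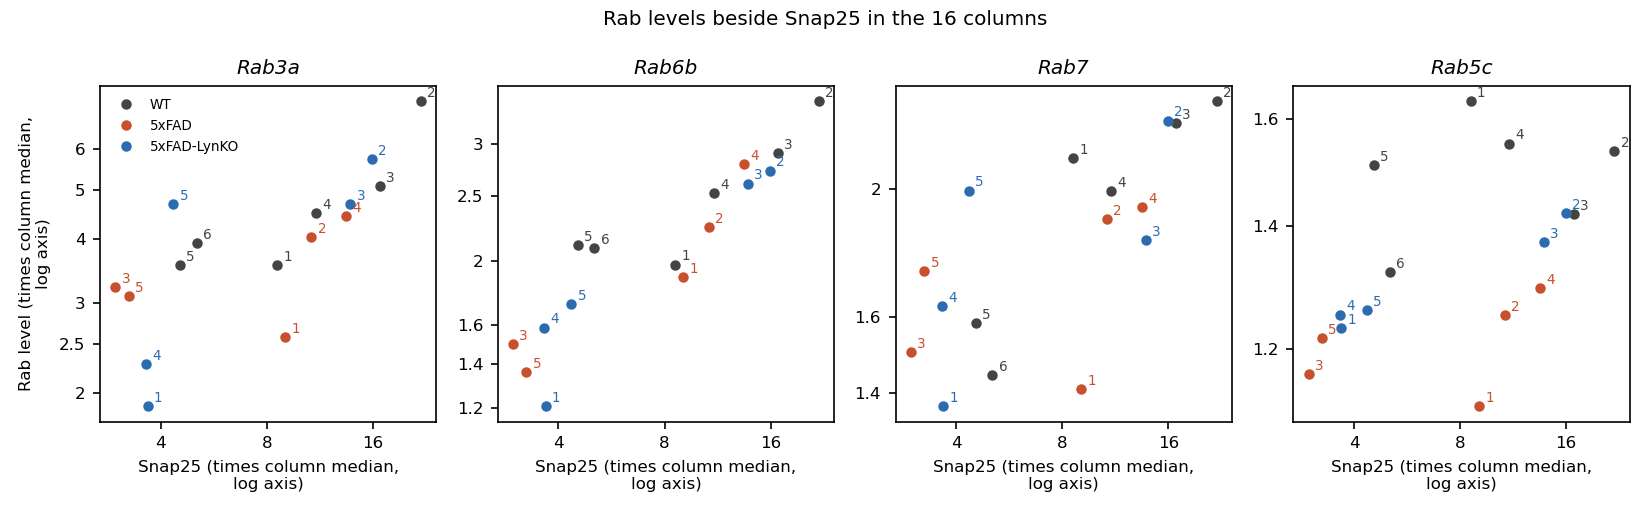
Levels of Rab3a, Rab6b, Rab7 and Rab5c against Snap25 in the 16 columns, both as multiples of the column median on log axes, coloured by genotype and labelled with the column number. Rab3a and Rab6b are highest in WT column 2, where Snap25 is 21.9, and lowest in 5xFAD-LynKO column 1, and Rab5c lies at 1.32 to 1.64 in WT, 1.12 to 1.30 in 5xFAD and 1.23 to 1.42 in 5xFAD-LynKO.

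Microglial markers also differed between WT and 5xFAD, 6 of the 10 being called lower in 5xFAD, against 8.23% of all targets. WT columns 1 and 3 carried the highest values. Without those 2 columns, Rab3b (−0.34) and Rab5c (−0.29) remained called, and Rab7b (0.29, adjusted p = 0.0961), Rab32 (0.28, adjusted p = 0.124) and Rab35 (−0.25, adjusted p = 0.0676) were not, while calls over all targets went from 2839 to 1638. Oligodendrocyte markers were called lower for 3 of 8, astrocyte markers for 1 of 8 and pan-neuronal markers for 1 of 10 (Rbfox3, −0.44). The astrocyte and pan-neuronal counts are near the 8.23% of all targets called lower. No microglial, oligodendrocyte or astrocyte covariate was fitted, and the part of these cell types in the Rab differences was not tested.

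The machinery that loads, switches and reads Rabs was measured in 63 targets, of which 21 were above background, and 4 (6.35%) were called in 5xFAD against WT, against 14.2% of all targets. Rab11fip1, an effector that couples Rab11 to recycling cargo, rose by 0.35 on the log2 scale (limma adjusted p = 0.00422). Its level was 1.22, 1.28 and 1.35 at the lowest, median and highest WT column, 1.58, 1.55, 1.69, 1.66 and 1.65 in 5xFAD and 1.47, 1.43, 1.38, 1.35 and 1.30 in 5xFAD-LynKO. Its WT and 5xFAD columns did not overlap, and the difference of 5xFAD-LynKO from 5xFAD was −0.23 (adjusted p = 0.238). It was over 1.5 times the negative probe in every 5xFAD column, the group where it was high, which is enough to count as above background.

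The 3 others fell. Vps41, a subunit of the HOPS tether that Rab7 recruits to lysosomes, fell by 0.35 (adjusted p = 0.0358), from 1.87 ± 0.27 to 1.46 ± 0.17, and had 1.61 ± 0.19 in 5xFAD-LynKO. Dennd6a, an exchange factor for Rab14, fell by 0.27 (adjusted p = 0.0202), from 1.30 ± 0.066 to 1.07 ± 0.097, and Tbc1d4, the Rab10 GTPase activating protein of insulin signalling, fell by 0.26 (adjusted p = 0.0423), from 1.01 ± 0.12 to 0.844 ± 0.072. Neither Dennd6a nor Tbc1d4 was above background. No regulator was called in the 2 other comparisons.

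By list, 0 of 8 targets of prenylation and membrane extraction, 1 of 21 exchange factors (4.76%), 1 of 11 GTPase activating proteins (9.09%) and 2 of 23 effectors (8.70%) were called, against the same 14.2%. In the first list, Gdi2, which extracts GDP-bound Rabs from membranes, and Rabac1, a prenylated Rab acceptor, had differences of −0.30 (adjusted p = 0.143) and −0.20 (adjusted p = 0.334).

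Among the exchange factors, Dennd5a, Ccz1, which activates Rab7 with Mon1, and Rin1, which activates Rab5, had the strongest probes and differences of −0.23, 0.09 and −0.11, without a call. Of the GTPase activating proteins Rabgap1l, Usp6nl and Rabgap1 had −0.13, −0.24 and 0.03, Usp6nl, which acts on Rab5, being nearest to a call (adjusted p = 0.0730). Rph3a, the rabphilin effector of Rab3a, had 2.72 ± 0.93, 2.10 ± 0.37 and 2.03 ± 0.72, with a difference of −0.31 (adjusted p = 0.336). Rab11fip4 and Rab11fip5, further Rab11 effectors, had −0.27 (adjusted p = 0.159) and −0.06 (adjusted p = 0.758).

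Tlr4, the lipopolysaccharide receptor named beside Lyn in the study's title, was called lower in 5xFAD (−0.60, adjusted p = 0.00122), at 0.797 ± 0.13 against 1.21 ± 0.15 in WT, and had 1.11 ± 0.12 in 5xFAD-LynKO. It was not above background.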

How the data were processed

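RNA of 16 columns (6 WT, 5 5xFAD, 5 5xFAD-LynKO) was analysed. The authors deposited a non-negative signal per target, and how they normalised it is not given in the sources used here. Within a column, 1 step divided 19959 of the 19963 values evenly (tolerance 1e-06). The deposited medians were equal within a genotype (86.7, 159 and 196 for WT, 5xFAD and 5xFAD-LynKO), so each column was scaled to its own median.

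Differences were tested on log2(value + 1) minus the column median by limma (version 3.58.1, R version 4.3.3; a linear model per target, moderated by eBayes with trend), over 19960 targets, leaving out the negative probe, Tmem119 and Gfap, with all 16 columns in 1 model, no covariate and no filter. A call needed a Benjamini-Hochberg adjusted p below 0.05, and intervals are 95%. Background is not subtracted, which tends to shrink the log2 difference of weak targets. Median scaling placed the negative probe at a mean of 0.894 in WT and 0.947 in 5xFAD. For the subtraction, columns were first put on 1 common median, and results under 1 were then set to 1. Differences of targets below the negative probe therefore depend on that floor. In WT and 5xFAD, Rab32 exceeded the negative probe only in WT column 6 (0.988 against 0.918) and 5xFAD column 2 (0.964 against 0.940). Its change of sign on subtraction rests on those columns. No count model was fitted, because the lowest values stood at 9 to 66 steps. The unit is 1 region, and no source ties a region to an animal. The number of columns and the spread between them set the precision. The fit was tested on simulated data with independent noise per target, where 5.73% to 8.11% of calls were false. Those data held no shift shared by columns or animals.

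Named genes were all called Rab targets, the Rab3, Rab5, Rab7 and Rab11 families, all Rab targets above background, called regulators and up to 3 strongest probes of each regulator list. A gene that this rule names is not reported here. The members, role groups and lists were chosen with earlier results of these data known. Within genotypes, chi-square over its degrees of freedom between implied counts ran from 1.16 to 6.64, so no column was an exact copy of another. The lowest values were 1.16 for WT columns 5 and 6 and 1.18 for 5xFAD columns 3 and 5. Counts drawn again from the same RNA would give a value near 1, and independence of those columns was not tested. Alternatives were other scalings, negative probe subtraction, pseudocounts (5 or 0.1), a background filter, array weights, a block, a neuronal covariate, fits to the compared columns, no mean trend and left-out columns. Upstream sequences came from RefSeq, GRCm38.p6. The source files name no genome build. Figures were drawn with matplotlib 3.10.9.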

Additional observations from a re-analysis of the deposited data

Results flagged for a closer look

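A single column stood apart from the others of its genotype, by Dixon's 95% critical value, in 5 of 114 groups tested over 38 members (4.39%), where chance gives about 1 in 20. Rab11b in WT column 2 was at 3.13 against 2.71 for the nearest WT column. Rab7b in WT column 2 was at 0.720 against 0.946, and without that column Rab7b was not called in 5xFAD. Rab32 in WT column 6 was at 0.988 against 0.732. Rab33a in 5xFAD column 4 was at 1.60 against 1.26, and Rab9b in 5xFAD-LynKO column 5 was at 1.69 against 1.30.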

How the results depend on the processing

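The count of Rab targets called in 5xFAD against WT was 5 in the reported setting. It was 2 with the negative probe subtracted, among targets above background, with the neuronal covariate and without WT columns 1 and 3 together, and in each of those 4 settings the 2 were Rab3b and Rab5c. The background filter removed Rab35, Rab7b and Rab32 beforehand. Rab5c passed that filter through WT, where it was high, so the filter setting is no separate support. The Rab count was 3 with the compared columns only and with no mean trend, and 58 without rescaling. It was 1 to 6 when each column was left out, the single call without 5xFAD column 1, 3 or 5 being Rab5c. It was also 2 without WT column 1, WT column 2 or 5xFAD column 2, and 3 without WT column 3, WT column 5 or 5xFAD-LynKO column 3. For all targets it was 1345 with the negative probe subtracted, 596 among targets above background, 1638 without WT columns 1 and 3, 19825 without rescaling and 1396 to 3813 over the left-out columns, against 2839. Of all targets, 2205 were called with the neuronal covariate, 2503 with the compared columns only and 2649 with no mean trend.

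In 5xFAD-LynKO against 5xFAD, 0 Rab targets were called except 47 without rescaling, where all targets gave 15004. For all targets, against 0, quantile normalization gave 183, subtraction 41, array weights 643, the covariate 36, the compared columns only 4, leaving out WT columns 1 and 3 gave 1, and single left-out columns gave 0 to 129, the highest without 5xFAD column 4. In 5xFAD-LynKO against WT, 0 Rab targets were called except 59 without rescaling (19928 of all targets), and the 12 calls became 6 with quantile normalization, 7 with subtraction, 4 above background, 1 with the compared columns only, 7 without WT columns 1 and 3 and 1 to 15 over the left-out columns.

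Without rescaling the deposited genotype medians enter every difference, which moved the median of all targets to 0.88 in 5xFAD against WT and turned the sign of Rab3b (0.55), Rab5c (0.57), Rab35 (0.62), Dennd6a (0.60), Tbc1d4 (0.61), Vps41 (0.53), Rbfox3 (0.43) and Tlr4 (0.27). Subtracting the negative probe moved that median to −0.32, with larger differences for Rab5c (−1.23) and Rab3b (−0.96). Rab32, mostly at the floor of that setting, turned to −0.20 (adjusted p = 0.939). Rab5c kept its call in all other alternatives except quantile normalization (−0.21, adjusted p = 0.0532), and Rab3b lost it there (−0.19, adjusted p = 0.154) and without 5xFAD column 1, 3 or 5. Rab11fip1 kept its call and sign in all 30 alternatives. Without rescaling, however, 19824 of all 19960 targets were called higher, so that setting is no separate support. Leaving out a 5xFAD-LynKO column changes only the shared estimate of spread, not the difference of 5xFAD from WT. The background filter is among the alternatives. Rab5c passed it through WT and Rab11fip1 by its 5xFAD columns, in each case the group where it was high.

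With the replicate block, 6 Rab targets and 2615 of all targets were called in 5xFAD against WT, 0 and 0 in 5xFAD-LynKO against 5xFAD, and 0 and 16 in 5xFAD-LynKO against WT. Deviations of same-numbered columns correlated at −0.39 to 0.66, so the numbers are not treated as pairing the columns. Depth, about 55 to 269 implied counts at the median probe, limits what can be seen for the 27 Rab targets not above background.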
